A study of Mus musculus with 5 samples.

Results

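The genes described here are the 31 genes of glycolysis and glucose uptake in mouse. They comprise the glucose transporters Slc2a1 and Slc2a3 and the enzymes of each step from hexokinase to lactate dehydrogenase. Also included are the enzymes that set fructose-2,6-bisphosphate, and Pgm1, Pgm2, Mpi, Galm and G6pc3, which act on hexoses or hexose phosphates beside the main steps. These members were taken from a list of names, and the rule that picks them uses no measured value. The list was, however, drawn up with earlier results of these data known. All 31 are among the 55499 genes to which the deposited transcripts could be joined, and 29 of them are among the 13878 genes tested. They were measured by RNA sequencing in GL261, a mouse glioma line, 24 h after sodium propionate (2 libraries, replicates 2 and 3) or sodium chloride (3 libraries, replicates 1, 2 and 3) was added to the cells, both at a labelled dose of 1 uM. Propionate is a short-chain fatty acid, and sodium chloride was the control salt. Propionate replicate 1 was not analysed here. The labels do not say that libraries of one group came from separate cultures, so p-values measure the spread between these libraries, which may be technical. The cells are 1 established line, and in bulk RNA fewer cells with high expression and less RNA per cell cannot be told apart.

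Glycolysis splits glucose into pyruvate in the cytosol. Glucose enters through facilitative transporters, is trapped as glucose-6-phosphate by hexokinases, committed by phosphofructokinase, cleaved by aldolase and carried through a payoff phase that yields ATP and NADH; lactate dehydrogenase then turns pyruvate into lactate and restores NAD+. Most steps can be run by several isozymes encoded by different genes, and tumour cells, gliomas among them, are known for high glycolytic flux and for particular isozymes such as hexokinase 2, the M2 form of pyruvate kinase and lactate dehydrogenase A.

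The libraries held between 7.19 and 7.63 Gb of aligned sequence, and a gene at 1 TPM had a mean coverage per base between 4.73 and 4.99. TPM, the relative abundance that StringTie gives, is a level scaled for transcript length and library size, so it can be compared between genes. Across all 13878 tested genes, 182 (1.31%) were higher and 70 (0.504%) lower after propionate at an adjusted p under 0.05 in limma with Benjamini-Hochberg adjustment, but this count moved with the processing. Rescaling TPM over protein-coding genes, with only 11283 such genes tested, gave 588 and 407. There were 2 and 1 with no minimum TPM (30496 genes tested) and 5 and 6 over reference transcripts only (13344 tested). The count also fell with any 1 library left out, most without propionate replicate 3. In 14.8% of tested genes both propionate libraries lay above all 3 chloride libraries, and in 19.7% both lay below. Of 8 genes used as markers of this glioma line, 7 were tested, led by Vim at 6098 and 6841 TPM after propionate and 6897, 7073 and 5472 TPM after chloride; Olig2 was under 1 TPM in every library. One of the 7, Pdgfra, a growth factor receptor gene, was higher after propionate, with 22.6 and 22.4 TPM against 11.6, 11.1 and 12.4 TPM in chloride libraries (limma adjusted p = 0.00719). That call was lost without propionate replicate 3 (0.0862), with no minimum TPM (0.119) and over reference transcripts only (0.127). S100b, a calcium-binding protein gene of glial cells, named after its values were seen, lay the other way, with 147 and 167 TPM after propionate and 207.5, 194 and 203 TPM after chloride. Its groups did not overlap and its log2 difference was -0.36 (limma adjusted p = 0.0936), which was called under 3 of 15 alternatives and changed sign under 1. The markers of myeloid, lymphoid, endothelial and neuronal cells summed to at most 1.42 TPM per list in any library. Those of fibroblasts and pericytes summed to 29.3 and 32.9 TPM in propionate libraries and to 24.8, 24.0 and 24.7 TPM in chloride libraries, most of it Acta2. Both tested genes of that list lay above every chloride library in both propionate libraries, Acta2 at 26.8 and 30.9 TPM against 23.7, 23.2 and 24.0 TPM and Pdgfrb at 2.29 and 1.91 TPM against 1.01, 0.652 and 0.626 TPM. Neither was called in limma on log2(TPM + 1) (adjusted p = 0.228 for Acta2 and 0.0867 for Pdgfrb), but both were over protein-coding genes (0.0472 and 0.0301), and Pdgfrb was under voom (0.00633). Their part in the results was not tested. Of 6 genes listed for RNA quality none was called; Malat1 had 1174 and 1136 TPM after propionate and 1053, 1719.7 and 1349 TPM after chloride, and mt-Cytb had 61.9 and 53.7 TPM after propionate and 71.1, 58.6 and 65.1 TPM after chloride.

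No member of the glycolysis set passed the threshold in either direction: 0 of 29 tested members were higher and 0 lower, where all tested genes gave 1.31% and 0.504%, and 1.82% in either direction. At an unadjusted p under 0.05 in limma, 2 of 29 members were higher and 6 lower, against 1100 and 1234 of all 13878 tested genes. The other tool run, voom on aligned bases, called 2 members higher (Bpgm and Hk1) and 4 lower (Aldoa, Gapdh, Pkm and Pfkl). Over all 13878 genes, voom called 707 higher and 358 lower. The median log2 difference, propionate minus chloride, was -0.04 over the 29 members and -0.03 over all tested genes. Of the members, 11 lay above 0 and 18 below, against 6179 and 7699 of all 13878 tested genes. Both propionate libraries lay above every chloride library for 4 of 29 tested members (13.8%) and below for 9 (31.03%), against 14.8% and 19.7% of all tested genes, so the first share was close to that of all genes. The 9 below include Gapdh, of whose TPM, combined with that of genes closely matching its sequence, 98.1% was listed at those genes. With these genes counted in Gapdh, its groups overlapped. Pfkfb4 and Pgam2, both with means under 1 TPM, were not tested.

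**Figure D1:**
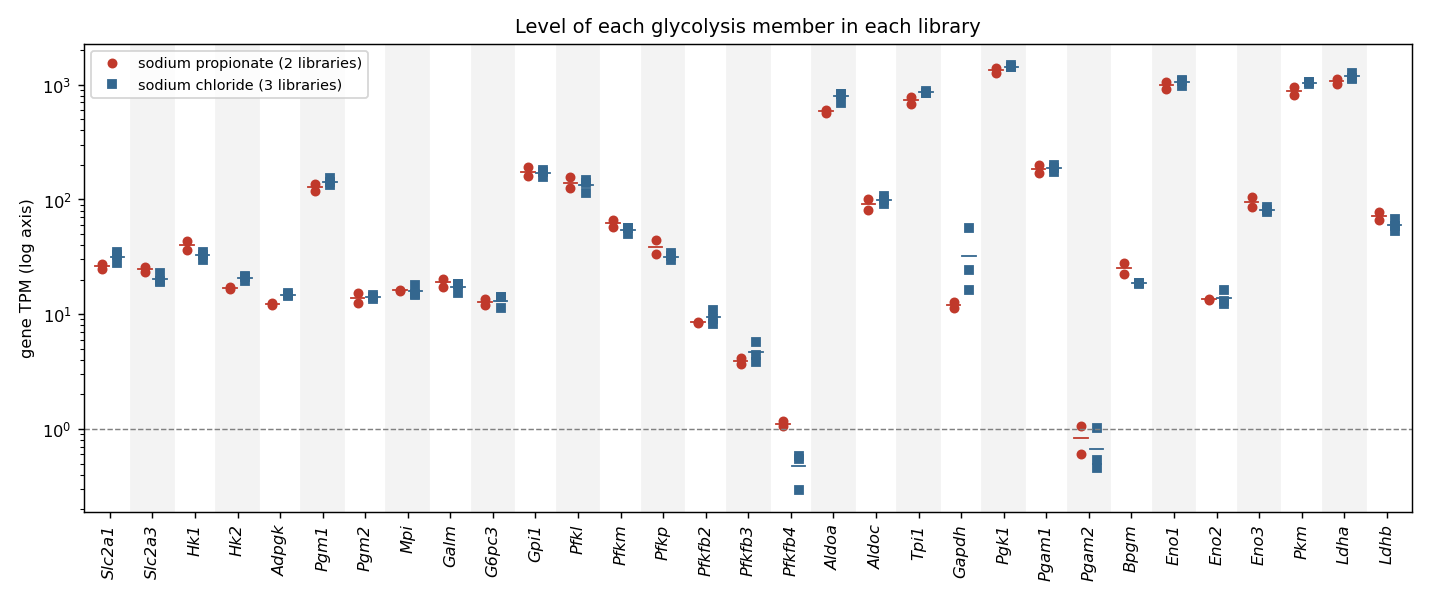
Gene TPM (log axis) of the 31 members in pathway order, with each point 1 library, red circles for sodium propionate (2 libraries), blue squares for sodium chloride (3 libraries) and short lines for the group means. The dashed line marks 1 TPM, the mean a gene needed to be tested; members span from under 1 TPM (Pfkfb4 and Pgam2) to 1477 TPM (Pgk1), and the groups lie close together for nearly every gene.

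The members differed far more among themselves than between the groups, as the plot of levels shows. Aldoa, Tpi1, Pgk1, Eno1, Pkm and Ldha each averaged at least 500 TPM and together held 83.1% of the members' summed TPM. That sum was 6390.5 and 7263 TPM in the propionate libraries and 7891, 7577 and 7257 TPM in the chloride libraries, so the groups overlapped. The 6 abundant members all had a log2 difference below 0, with a median of -0.18, and for 5 of them both propionate libraries lay below all chloride libraries, as in 19.7% of all tested genes; this grouping by level was made after the values were seen and was not tested. Of 132 tested protein-coding genes at that level, 79 lay above 0 and 53 below, with a median of 0.01, and both propionate libraries lay below all chloride libraries for 18. Propionate replicate 2 was the lower of the propionate libraries for each of the 6. Over all members, the libraries stood at a median log2 distance from the mean of the chloride group of -0.14 (propionate replicate 2) and 0.03 (propionate replicate 3), against 0.06, 0.02 and -0.08 in the chloride libraries.

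**Figure D2:**
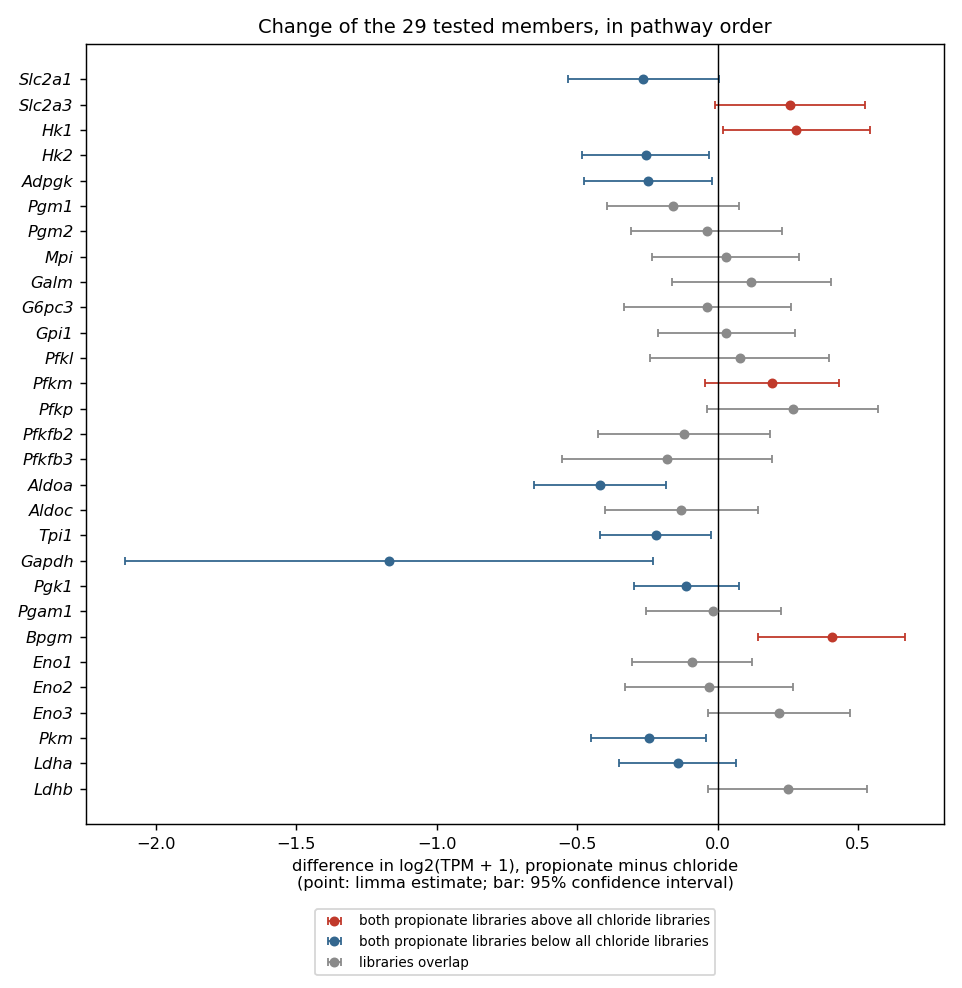
Difference in log2(TPM + 1), propionate minus chloride, for the 29 tested members in pathway order from top to bottom, with 95% confidence intervals from limma (2 propionate and 3 chloride libraries). Red marks members whose propionate libraries both lay above all chloride libraries (4), blue those below (9), and grey those that overlap (16); the interval of Gapdh, from -2.11 to -0.23, is the widest.

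Slc2a1 encodes GLUT1, the widespread basal glucose transporter, and had 24.9 and 27.6 TPM in propionate libraries against 34.7, 32.7 and 28.0 TPM in chloride libraries. Slc2a3 encodes GLUT3, the high-affinity transporter best known from neurons, and had 23.1 and 25.9 TPM after propionate against 22.9, 19.3 and 19.0 TPM after chloride. Slc2a1 was thus lower and Slc2a3 higher in both propionate libraries, though for each gene the nearest libraries of the groups were close together. The log2 differences were -0.26 ± 0.12 for Slc2a1 and 0.26 ± 0.12 for Slc2a3 (SE; limma adjusted p = 0.304 and 0.314). As a share of the summed TPM of both genes, Slc2a1 held 51.8% and 51.5% in propionate libraries and 60.3%, 62.9% and 59.6% in chloride libraries. These shares did not overlap and differed by -9.22 percentage points (two-sided exact permutation test, p = 0.1, the smallest this design allows; adjusted over 7 shares, 0.233). Over reference transcripts only, without transcripts assembled from the reads, the difference in share was -16.98 points with an exact permutation p of 0.2. Among other hexose carriers, Slc2a8, Slc2a12, Slc2a6, Slc2a10 and Slc2a9 were tested and none was called, while Slc2a2, Slc2a5, Slc2a13 and the sodium-coupled Slc5a1 and Slc5a2 were under 0.3 TPM in every library. Slc2a4, which encodes the insulin-responsive GLUT4 of muscle and fat, had 0.650 and 1.03 TPM in propionate libraries and 0.114, 0.133 and 0.158 TPM in chloride libraries, too low on average to be tested.

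Hk1, the housekeeping hexokinase, had 36.4 and 43.4 TPM in propionate libraries against 34.8, 33.1 and 30.0 TPM in chloride libraries. Hk2, the hexokinase often raised in tumours, had 16.7 and 17.4 TPM after propionate against 20.9, 21.3 and 19.4 TPM after chloride. The 2 genes lay on opposite sides with no overlap between groups, at log2 differences of 0.28 ± 0.11 for Hk1 and -0.26 ± 0.10 for Hk2 (SE; limma adjusted p = 0.265 and 0.242); that of Hk1 was 0.0411 under voom. With any 1 library left out, the difference of Hk1 ran between 0.15 and 0.40, lowest without propionate replicate 3. Hk2 made up 31.4% and 28.6% of their summed TPM in propionate libraries and 37.5%, 39.2% and 39.3% in chloride libraries, a difference of -8.66 percentage points (two-sided exact permutation p = 0.1, the smallest possible; adjusted, 0.233). That difference stayed between -10.0 and -7.26 points when any 1 library was left out. Adpgk, which encodes the ADP-dependent glucokinase of the endoplasmic reticulum, had 11.99 and 12.6 TPM in propionate libraries, below the 14.3, 14.7 and 15.4 TPM in chloride libraries (limma adjusted p = 0.256).

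Gpi1, the isomerase between glucose-6-phosphate and fructose-6-phosphate, had 159.7 and 191 TPM in propionate libraries and 180.1, 175 and 158 TPM in chloride libraries. Pgm1, the main phosphoglucomutase and the link to glycogen, had 118 and 138 TPM after propionate and 152, 143 and 133 TPM after chloride. Pgm2, Mpi (the mannose phosphate isomerase), Galm (the aldose epimerase that readies galactose and glucose) and G6pc3 (the ubiquitous glucose-6-phosphatase, which runs against hexokinase) ranged between 11.3 and 20.4 TPM. All 6 genes of this group overlapped between the groups. Their log2 differences ran between -0.16 (Pgm1) and 0.12 (Galm).

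Phosphofructokinase commits the sugar to glycolysis and is a tetramer of liver, muscle and platelet subunits. Pfkl, the liver subunit gene and the most abundant of the 3 here, had 125 and 156 TPM in propionate libraries and 113, 138 and 148 TPM in chloride libraries. Pfkm, the muscle subunit gene, had 58.0 and 66.2 TPM after propionate, above the 56.6, 56.0 and 49.9 TPM after chloride. Pfkp, the platelet subunit gene, had 33.3 and 44.4 TPM after propionate and 31.9, 33.9 and 29.7 TPM after chloride, so a single chloride library exceeded the lower propionate one. The log2 differences were 0.08 for Pfkl, 0.19 for Pfkm and 0.27 for Pfkp (limma adjusted p = 0.836, 0.390 and 0.360). With any 1 library left out, that of Pfkm ran between 0.10 and 0.29 and that of Pfkp between 0.064 and 0.47, each lowest without propionate replicate 3. Under voom on aligned bases the Pfkl difference turned to -0.24 (limma-voom adjusted p = 0.0308); transcripts assembled from the reads held 25.5 and 5.33 TPM of Pfkl in propionate libraries and 87.2, 54.0 and 38.7 TPM in chloride libraries. The bifunctional enzymes that make and remove fructose-2,6-bisphosphate, the main activator of phosphofructokinase, were low. Pfkfb2 had 8.40 and 8.57 TPM against 8.19, 10.9 and 9.01 TPM in chloride libraries, and Pfkfb3, the hypoxia-inducible form, had 3.71 and 4.18 TPM against 5.68, 4.41 and 3.85 TPM in chloride libraries. Pfkfb4 had 1.056 and 1.17 TPM in propionate libraries against 0.588, 0.291 and 0.550 TPM in chloride libraries.

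Aldoa, which cleaves fructose-1,6-bisphosphate in most tissues, had the smallest p-value of the members. Its level was 568 and 608 TPM in propionate libraries and 836, 836 and 696 TPM in chloride libraries, with no overlap. The log2 difference was -0.42 ± 0.10 (SE), a ratio of 0.748, with a 95% interval of -0.65 to -0.19 and a limma adjusted p of 0.0883, which misses the threshold. That adjusted p was under the threshold with median-of-ratios scaling (0.0477), over protein-coding genes (0.0212) and under voom (0.0158), and the highest over 15 alternatives was 0.296. Aldoa lies on chromosome 7 of GRCm38, 126795234 to 126809108, on the minus strand. Its 153-base exon at 126797974 to 126798126 is skipped by the most abundant reference transcript. Coverage of that exon was 106 and 102 reads per base in propionate libraries and 53.2, 78.8 and 57.8 in chloride libraries. Relative to the next exon this was 3.10% and 2.96% in propionate libraries and 1.12%, 1.62% and 1.49% in chloride libraries, so the exon's share was higher, and the gene's total lower, in both propionate libraries. ENSMUST00000087566, a reference transcript that includes the exon, was given 16.5% and 23.6% of Aldoa TPM in propionate libraries. In chloride libraries it was given 7.05%, 9.01% and 8.97%. The 2 measures thus lay the same way but were far apart in size, and the cause was not tested. This exon was picked out after its coverage was seen, and no test was run on it. Aldoc, the brain aldolase, had 80.5 and 101 TPM after propionate and 98.8, 91.7 and 106 TPM after chloride, which overlap. Tpi1, which interconverts the triose phosphates, had 685 and 785 TPM in propionate libraries, below the 873, 839.9 and 852 TPM in chloride libraries (log2 difference -0.22 ± 0.09 SE, limma adjusted p = 0.247, and 0.0370 over protein-coding genes).

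Gapdh, the dehydrogenase of the payoff phase and a common reference gene, was listed at only 11.2 and 12.7 TPM in propionate libraries and 56.2, 24.3 and 16.1 TPM in chloride libraries. The pathway neighbours Tpi1 and Pgk1 stood between 685 and 1477 TPM in the same libraries. Of the level listed at Gapdh, its 13 reference transcripts held between 0.738 and 1.90 TPM in any library and assembled transcripts the rest. A search of the annotated transcripts found 180 genes that match Gapdh over at least 200 bases at 90% identity or more, 33 of them at a mean of 1 TPM or more. These genes held 1069.5 and 1189 TPM in propionate libraries and 1466, 1282 and 1082 TPM in chloride libraries, which is 98.1% of the TPM of Gapdh and matching genes together. The processed pseudogenes Gm7336, Gm5559 and Gm2606 held the most. The sequences show how little separates them. They are the same 120 coding bases of Gapdh and of those 3 pseudogenes, in GRCm38, with capitals for bases that differ from Gapdh, chosen as the window inside 1 coding exon with the most differences:
Gapdh (chromosome 6, 125162921 to 125163040, minus strand): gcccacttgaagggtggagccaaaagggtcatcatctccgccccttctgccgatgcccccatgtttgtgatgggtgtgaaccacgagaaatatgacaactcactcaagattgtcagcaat
Gm7336 (chromosome 7, 51747018 to 51747137, plus strand): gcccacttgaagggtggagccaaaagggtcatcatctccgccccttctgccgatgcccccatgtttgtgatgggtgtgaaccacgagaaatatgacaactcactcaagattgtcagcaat
Gm5559 (chromosome 5, 95862035 to 95862154, plus strand): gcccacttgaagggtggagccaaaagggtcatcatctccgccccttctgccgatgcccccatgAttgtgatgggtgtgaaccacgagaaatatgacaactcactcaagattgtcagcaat
Gm2606 (chromosome 15, 12575210 to 12575329, plus strand): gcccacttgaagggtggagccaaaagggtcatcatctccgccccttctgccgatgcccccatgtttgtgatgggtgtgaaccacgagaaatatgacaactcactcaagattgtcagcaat

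Over their whole alignments with the Gapdh transcript, Gm7336 was 99.8% identical over 1200 bases, and Gm5559 and Gm2606 were 99.9% identical over 1002 bases each. Gapdh had a log2 difference of -1.17 ± 0.41 (SE), a ratio of 0.445, with a limma adjusted p of 0.201, and 0.0419 under voom. Chloride replicate 1 stood well above the other chloride libraries. Without it the difference was -0.68 and not called, and without chloride replicate 3 it was -1.55 (limma adjusted p = 0.0423), the ends of the range over libraries left out. With the matching genes counted in Gapdh, its level was 1081 and 1202 TPM in propionate libraries and 1523, 1306 and 1098 TPM in chloride libraries. The groups then overlapped, and the log2 difference was -0.19 (limma adjusted p = 0.526). Pgk1, the first ATP-yielding enzyme, was the most abundant member, with 1263 and 1403 TPM after propionate and 1477, 1422 and 1416 TPM after chloride (log2 difference -0.11, limma adjusted p = 0.539). Matching genes held 15.6% of the combined TPM of Pgk1, 17.4% of that of Pgam1, 18.8% of that of Eno1 and 4.03% of that of Tpi1, and counting them in the member moved none of those 4 log2 differences by more than the SE.

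**Figure D3:**
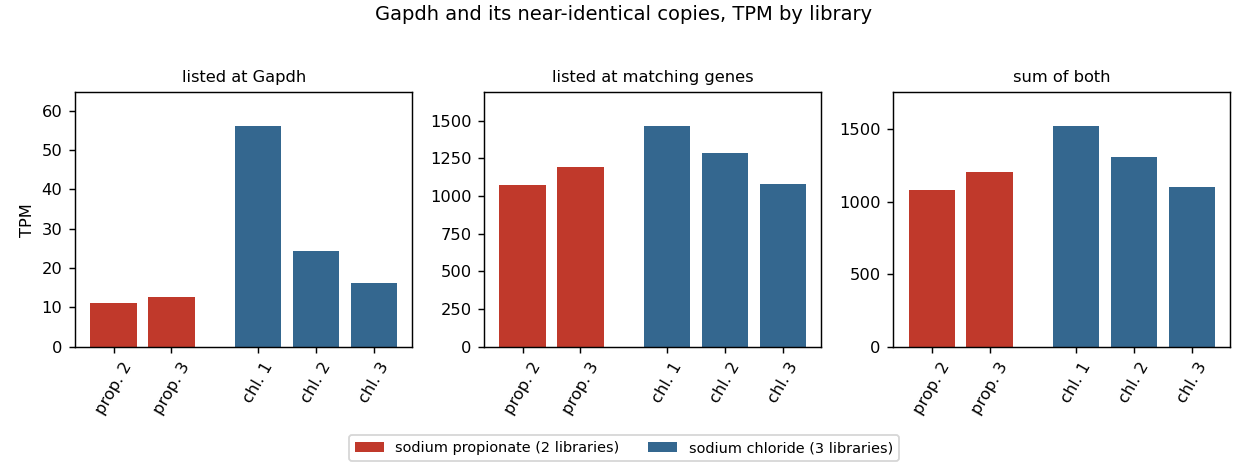
TPM by library listed at Gapdh (left), at the 180 genes that match it (middle) and at both (right), with red bars for propionate replicates 2 and 3 and blue bars for chloride replicates 1, 2 and 3; each axis starts at 0 and has its own range. At Gapdh alone both propionate libraries (11.2 and 12.7 TPM) are below all chloride libraries, while for the sum chloride replicate 3 (1098 TPM) lies between them.

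Pgam1, the mutase of most tissues, had 169.6 and 201 TPM in propionate libraries and 199.9, 187 and 174 TPM in chloride libraries, a log2 difference of -0.02. Pgam2, the muscle form, had 0.601 and 1.07 TPM after propionate and 0.533, 1.03 and 0.456 TPM after chloride. Bpgm, which makes 2,3-bisphosphoglycerate and is best known from red blood cells, had the smallest p-value among members above 0. Its level was 22.4 and 27.9 TPM in propionate libraries against 18.7, 18.6 and 18.5 TPM in chloride libraries, and the 3 chloride values lay very close together. The log2 difference was 0.41 ± 0.11 (SE), a ratio of 1.33, with a 95% interval of 0.14 to 0.67 and a limma adjusted p of 0.123. The call was made with median-of-ratios scaling (adjusted p = 0.0415), over protein-coding genes (0.0223) and under voom (0.0229), and the highest adjusted p over 15 alternatives was 0.303. With any 1 library left out the difference ran between 0.25 and 0.56, lowest without propionate replicate 3.

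Eno1, the ubiquitous alpha enolase, had 918 and 1056 TPM in propionate libraries and 1096, 1072 and 983 TPM in chloride libraries, which overlap. Eno2, the neuronal gamma enolase, had 13.4 and 13.6 TPM after propionate and 12.4, 16.3 and 13.0 TPM after chloride, and its share of enolase TPM was between 1.04% and 1.39% in every library. Eno3, the muscle beta enolase, had 85.3 and 106 TPM after propionate and 85.9, 80.5 and 78.1 TPM after chloride. Its log2 difference was 0.22 ± 0.11 (SE, limma adjusted p = 0.370), and -0.37 over reference transcripts only (limma adjusted p = 0.441). With any 1 library left out it ran between 0.066 and 0.37. Assembled transcripts held 38.2 and 49.3 TPM of Eno3 in propionate libraries and 4.98, 19.3 and 17.7 TPM in chloride libraries.

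Pkm, which makes pyruvate and the second ATP of the payoff phase, had 814 and 947 TPM in propionate libraries, below the 1059, 1057 and 1006 TPM in chloride libraries. The log2 difference was -0.24 ± 0.09 (SE), with a 95% interval of -0.45 to -0.04 and a limma adjusted p of 0.220; it was under the threshold over protein-coding genes (0.0293) and under voom (0.0368). With any 1 library left out the difference ran between -0.35 and -0.14, and Pkm was not called. Pkm makes the M1 form with exon 9 and the M2 form with exon 10, never both in 1 mature transcript, and M2 is the form typical of growing and tumour cells. Both exons have 167 bases and lie on the plus strand of chromosome 9 in GRCm38. They are shown because the M1 to M2 balance is read from them alone, with capitals at the 64 positions where they differ (103 bases, 61.7%, are identical without gaps):
M1 exon (59675029 to 59675195): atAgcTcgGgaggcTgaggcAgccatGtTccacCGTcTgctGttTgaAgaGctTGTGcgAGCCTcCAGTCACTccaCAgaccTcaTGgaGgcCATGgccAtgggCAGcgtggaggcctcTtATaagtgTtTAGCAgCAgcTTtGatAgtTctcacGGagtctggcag
M2 exon (59675568 to 59675734): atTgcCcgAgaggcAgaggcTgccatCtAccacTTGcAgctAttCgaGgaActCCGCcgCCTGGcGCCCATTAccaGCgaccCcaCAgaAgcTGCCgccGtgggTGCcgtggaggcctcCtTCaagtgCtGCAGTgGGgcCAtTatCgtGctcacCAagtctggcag

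Coverage of the M1 exon was 132 and 151 reads per base in propionate libraries and 170.2, 227 and 188 in chloride libraries. Coverage of the M2 exon was 3554 and 4373 in propionate libraries and 4824, 5044 and 4449 in chloride libraries. The M2 exon thus held 96.4% and 96.7% of the coverage of the pair after propionate and 96.6%, 95.7% and 95.9% after chloride. These shares overlapped and differed by 0.47 percentage points (two-sided exact permutation p = 0.3, adjusted 0.420). The 9 other exons of Pkm from the second onward, shared by both forms, were covered at between 3022 and 7946 reads per base. At each of the 9, both propionate libraries lay below all chloride libraries, though coverage is not scaled for depth. Of the 6 splicing factor genes listed for this exon pair, which include Ptbp1 and Hnrnpa1, none was called. Ptbp1, which represses exon 9, had 44.3 and 44.0 TPM in propionate libraries and 55.6, 54.0 and 48.6 TPM in chloride libraries (log2 difference -0.25, limma adjusted p = 0.241). Hnrnpa2b1 had 112 and 101 TPM after propionate and 118, 147 and 127 TPM after chloride (log2 difference -0.29, limma adjusted p = 0.247).

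**Figure D4:**
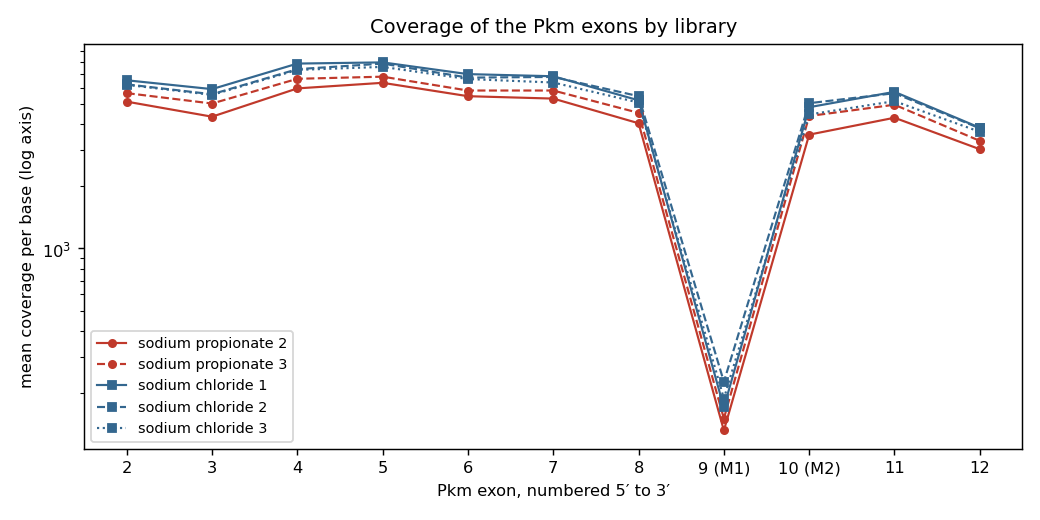
Mean coverage per base (log axis, not scaled for depth) of Pkm exons 2 to 12, numbered 5′ to 3′, with red lines for propionate replicates 2 and 3 and blue lines for chloride replicates 1, 2 and 3. Coverage drops to between 132 and 227 at exon 9 (M1) and returns to between 3554 and 5044 at exon 10 (M2) in all 5 libraries.

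Ldha, whose subunit favours the making of lactate, had 1015 and 1123 TPM in propionate libraries and 1272, 1126.5 and 1142 TPM in chloride libraries. The groups did not overlap, but the higher propionate library was just below the lowest chloride library (log2 difference -0.14, limma adjusted p = 0.470). Ldhb, whose subunit favours lactate use, had 65.6 and 77.2 TPM after propionate and 67.4, 59.2 and 53.3 TPM after chloride (log2 difference 0.25, limma adjusted p = 0.357). With any 1 library left out, the difference ran between -0.22 and -0.070 for Ldha and between 0.13 and 0.37 for Ldhb. Ldhb held 6.07% and 6.43% of their summed TPM in propionate libraries and 5.03%, 4.996% and 4.46% in chloride libraries. That share did not overlap and differed by 1.42 percentage points (two-sided exact permutation p = 0.1, the smallest possible; adjusted, 0.233). Ldhd, the mitochondrial D-lactate dehydrogenase and no member, had 5.70 and 6.95 TPM after propionate and 3.88, 4.16 and 4.44 TPM after chloride (limma adjusted p = 0.108, and 0.0374 over protein-coding genes). The split of Ldha between its 2 most abundant transcripts was unsteady within a group, since ENSMUST00000209984 was given 186 and 484 TPM in propionate libraries and 1.48, 502 and 316 TPM in those with chloride.

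**Figure D5:**
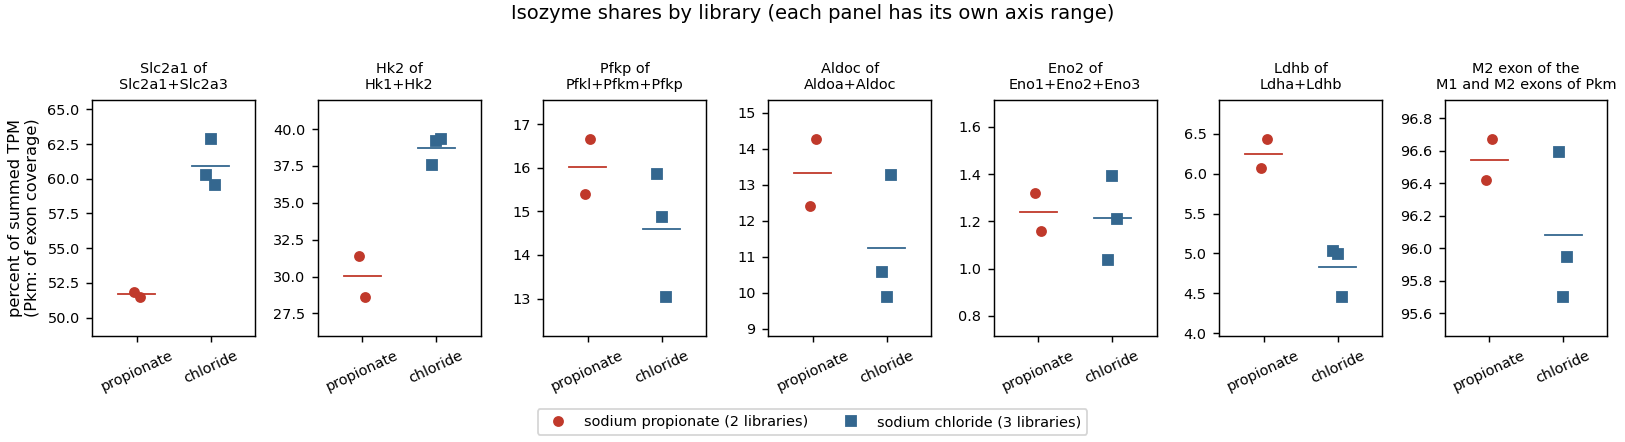
Percent of a step's summed TPM held by 1 isozyme, and the percent of Pkm M1 and M2 exon coverage on the M2 exon, by library, with red circles for propionate (2 libraries), blue squares for chloride (3 libraries) and lines for group means; each panel has its own axis range, which does not start at 0. Groups are apart for Slc2a1 (means 51.7% and 60.9%), Hk2 (30.0% and 38.7%) and Ldhb (6.25% and 4.83%) and overlap in the other 4 panels.

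Taking the steps with several isozymes side by side, 3 of the 7 shares did not overlap between the groups. They were the shares of Slc2a1, Hk2 and Ldhb, and the shares of Pfkp, Aldoc, Eno2 and the Pkm M2 exon overlapped. By level, the groups were also apart in many of all tested genes, with propionate above in 14.8% and below in 19.7%. With 2 libraries against 3 there are 10 assignments, so no exact permutation p can be under 0.1. Pfkp held 15.4% and 16.7% of phosphofructokinase TPM after propionate and 15.8%, 14.9% and 13.0% after chloride. Aldoc held 12.4% and 14.3% of the TPM of Aldoa and Aldoc after propionate and 10.6%, 9.89% and 13.3% after chloride.

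Of 14 tested genes that export lactate or admit pyruvate to the mitochondrion, none was called. Of these, 10 lay above 0 and 4 below, against 6179 and 7699 of all 13878 tested genes. Both propionate libraries lay above all chloride libraries for 4 of the 14 and below for 3, against 14.8% and 19.7% of all tested genes. The 3 below, named after their values were seen, were Slc16a8 (log2 difference -0.51, under 3 TPM in every library), Mpc2 (-0.22) and Pdhb (-0.21). Slc16a1, the monocarboxylate transporter MCT1, which also carries propionate, had 24.8 and 31.1 TPM in propionate libraries, above the 22.8, 21.6 and 20.5 TPM in chloride libraries (log2 difference 0.35, limma adjusted p = 0.193, and called under 2 of 15 alternatives). Bsg, the chaperone of these transporters, had 626 and 744 TPM after propionate against 570.4, 562 and 539.6 TPM after chloride (log2 difference 0.29, limma adjusted p = 0.172, and called under 3 of 15). Slc16a3, the lactate exporter MCT4, had 101 and 126 TPM after propionate and 145, 99.3 and 97.1 TPM after chloride, which overlap. Pdp1, the phosphatase that activates pyruvate dehydrogenase, had 8.82 and 9.84 TPM after propionate and 6.65, 7.19 and 6.89 TPM after chloride (limma adjusted p = 0.135, and called under 2 of 15).

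Genes of nucleotide sugar synthesis gave the calls closest to the pathway, 2 higher and 1 lower of 15 tested. Among all 13878 tested genes, 1.31% were called higher and 0.504% lower, to be set beside this list and the side-route list below. Both lists were chosen with earlier results of these data known, and neither was tested as a set. Ugp2, which makes UDP-glucose, was higher after propionate, at 347 and 406 TPM against 254, 224 and 243 TPM in chloride libraries (log2 difference 0.64 ± 0.10 SE, limma adjusted p = 0.0224). Ugdh, which oxidises UDP-glucose to UDP-glucuronate, was lower, at 62.4 and 68.0 TPM against 105, 95.5 and 93.6 TPM in chloride libraries (log2 difference -0.58 ± 0.09 SE, limma adjusted p = 0.0262). Pmm1, a phosphomannomutase, was higher, at 46.3 and 54.8 TPM against 29.4, 29.3 and 28.5 TPM in chloride libraries (log2 difference 0.77 ± 0.10 SE, limma adjusted p = 0.0133). Of 14 polyol, glyoxalase and triose side-route genes, 1 was called: Sord, sorbitol dehydrogenase, with 37.7 and 42.6 TPM after propionate against 27.3, 26.6 and 22.4 TPM after chloride (log2 difference 0.64 ± 0.12 SE, limma adjusted p = 0.0392). The call of Sord was lost when any 1 library was left out (limma adjusted p between 0.0704 and 0.177). That of Ugdh was lost without any library other than chloride replicate 3 (0.0701 to 0.0967). Ugp2 lost it without chloride replicate 1 (0.0692), chloride replicate 2 (0.0636) or propionate replicate 3 (0.113), and Pmm1 without chloride replicate 1 (0.0532) or propionate replicate 3 (0.0957). Over reference transcripts only, or with no minimum TPM, none of the 4 was called.

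No gene of the pentose phosphate, glycogen or gluconeogenesis lists was called. In the pentose phosphate list, 6 of 11 tested genes lay above 0, against 6179 of all 13878 tested genes. The smallest p-values of that list were those of H6pd and Tkt (limma adjusted p = 0.276 for both). H6pd, the hexose-6-phosphate dehydrogenase of the endoplasmic reticulum, had 7.66 and 8.53 TPM after propionate and 6.87, 6.45 and 6.20 TPM after chloride. Tkt, the transketolase, had 39.5 and 48.7 TPM after propionate and 51.3, 53.4 and 53.5 TPM after chloride. In the glycogen list, Ppp1r3c, a subunit that targets phosphatase to glycogen, had 24.4 and 30.6 TPM after propionate and 18.7, 17.7 and 17.5 TPM after chloride (log2 difference 0.58, limma adjusted p = 0.0547, and called under 6 of 15 alternatives). Gbe1, the branching enzyme, had 11.2 and 11.8 TPM after propionate and 17.96, 15.8 and 16.5 TPM after chloride (log2 difference -0.51, limma adjusted p = 0.0559, and called under 5 of 15). Fbp1, the fructose bisphosphatase of gluconeogenesis, stood at only 2.19 and 2.04 TPM after propionate and 1.18, 1.13 and 0.708 TPM after chloride (limma adjusted p = 0.143). Slc37a4, the glucose-6-phosphate carrier of the endoplasmic reticulum, had 13.3 and 17.7 TPM after propionate and 18.3, 18.4 and 16.3 TPM after chloride, and Tigar, which removes fructose-2,6-bisphosphate, had 4.84 and 6.10 TPM after propionate and 5.80, 5.50 and 6.06 TPM after chloride. Of the other isoforms, Pfkfb1 had 1.45 and 2.20 TPM after propionate and 2.36, 3.07 and 2.84 TPM after chloride (limma adjusted p = 0.292).

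Of 16 listed regulators 12 were tested, and none was called. Hif1a, the oxygen-sensitive activator of most genes of the pathway, had 21.05 and 23.8 TPM in propionate libraries, below the 28.1, 24.95 and 24.8 TPM in chloride libraries (log2 difference -0.20, limma adjusted p = 0.384); over reference transcripts only the difference was 0.10. Myc had 19.6 and 21.6 TPM after propionate and 21.1, 22.2 and 16.7 TPM after chloride. Txnip, a glucose-induced gene whose product lowers glucose uptake, had 169 and 201 TPM after propionate and 170.1, 159.7 and 141 TPM after chloride (log2 difference 0.23, limma adjusted p = 0.350). Mlxip, a glucose-sensing factor, had 4.34 and 4.06 TPM after propionate and 6.07, 5.86 and 4.58 TPM after chloride (limma adjusted p = 0.321). Mlxipl, named after its values were seen, was too low on average to be tested. It had 1.33 and 1.11 TPM after propionate and 0.257, 0.319 and 0.192 TPM after chloride. The other untested regulators, Epas1, Arrdc4 and Ppargc1a, were lower still, and their groups overlapped.

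Promoter sequences from RefSeq (GRCm38.p6, 250 bases before to 50 after the start) were found for 29 of the 31 members. Only 1 promoter was searched per gene, so other start sites of a gene were not covered. The annotated loci of Aldoa and Ldha extend upstream of the windows searched, to 126809108 and 46841475. Whether the expressed transcripts start at the windows was not tested. They were searched on both strands for ACGTG and GCGTG, the core of hypoxia response elements, and for the E-box CACGTG, which holds ACGTG within it. At least 1 core was in 20 of 29 member promoters (69.0%) and in 43.8% of 27025 promoters of the same length, and at least 1 E-box in 4 of 29 (13.8%) and in 7.24%. Member promoters had a median of 57.3% G+C, against 52.7% for all promoters. The abundant members were unlike each other in this respect. The searched promoter of Ldha held 7 matches to the core counted on both strands, where each of its 2 E-boxes counts as 2 matches. Those searched for Pgk1 and Eno1 held 2 each, and those searched for Aldoa, Tpi1 and Pkm held none. The promoters of Ldha, with the most matches, and of Aldoa, the member with the smallest p-value and no match, are given with matches in capitals:
Ldha promoter (chromosome 7, 46845554 to 46845853, plus strand): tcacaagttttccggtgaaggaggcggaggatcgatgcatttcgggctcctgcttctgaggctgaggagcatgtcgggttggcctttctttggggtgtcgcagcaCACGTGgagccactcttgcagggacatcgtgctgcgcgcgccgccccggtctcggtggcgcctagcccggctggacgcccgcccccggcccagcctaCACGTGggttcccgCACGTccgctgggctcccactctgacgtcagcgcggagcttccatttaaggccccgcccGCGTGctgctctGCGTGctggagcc
Aldoa promoter (chromosome 7, 126800398 to 126800697, minus strand): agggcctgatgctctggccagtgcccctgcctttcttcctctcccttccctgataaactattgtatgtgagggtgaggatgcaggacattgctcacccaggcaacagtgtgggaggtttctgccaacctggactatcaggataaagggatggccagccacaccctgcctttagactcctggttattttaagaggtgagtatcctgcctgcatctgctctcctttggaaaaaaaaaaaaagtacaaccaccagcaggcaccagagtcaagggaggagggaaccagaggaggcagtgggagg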

How the data were processed

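Per the labels' protocols, RNeasy Mini plus columns gave total RNA, from which TruSeq Stranded Total RNA (Gold) libraries were prepared. Tools listed in the submitters' processing notes are bcl2fastq, fastp, HISAT2 and StringTie, with the build mm10. Per the file headers, StringTie 2.1.1 estimated transcript TPM, FPKM and coverage against 1 merged annotation, with no strand option. No counts were in these files, so the deposited TPM was tested on a log scale, and depth is given as aligned sequence and coverage. An overlapping antisense gene cannot be separated without strand, and StringTie can place the reads of a near-identical copy at either gene.

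Gene TPM was the sum over a gene's reference transcripts (joined through GENCODE M21, where 99.81% had the same start) and 12224 assembled transcripts placed in the gene they overlap most on the same strand. The 2 gene identifiers of Aldoa were counted as 1 gene. Genes with a mean of at least 1 TPM (13878) were fitted with limma 3.58.1 in R 4.3.3 on log2(TPM + 1), a scale that understates changes of low genes, with a trend, group as the only term, two-sided tests and Benjamini-Hochberg adjustment over all tested genes. Shares were tested by exact permutation of the 5 libraries. Libraries of one group differed by an SD of 0.321 to 0.339 on the log2 scale, and none was a duplicate of another. Copies were found with BLAST+ 2.17.0 (at least 200 bases at 90% identity or more). The members and the other gene lists were chosen with earlier results of these data known. All members are named; other lists are named by up to 4 called genes or, with none called, the 2 with the smallest p, plus Slc16a1, Slc16a3, Hif1a, Myc, Txnip and Tigar. Alternatives were a pseudocount of 0.1 TPM, a minimum of 5 TPM or none, FPKM, voom on aligned bases (in units of 100), scaling by median of ratios or over protein-coding genes only, reference transcripts only, a replicate block and each library left out; copies counted in the member, and the Aldoa exon, were added after the data were seen.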

Additional observations from a re-analysis of the deposited data

How the results depend on the processing

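The direction of 17 of 29 members held under all 15 alternatives; the other 12, all but Pfkl never called, changed sign at least once (values below are log2 differences, propionate minus chloride). With median-of-ratios scaling Pgam1 was 0.0076. Under voom Pfkl was -0.24, Pfkfb3 0.052, Pgam1 0.0036 and Eno2 0.053. Over reference transcripts only Mpi was -0.15, Pfkfb2 0.41, Aldoc 0.012, Eno3 -0.37, Slc37a4 0.031, Mlxip 0.32, Hif1a 0.10 and the share of Pfkp -3.83 points. With 1 library left out the ranges were -0.0146 to 0.11 (Mpi), -0.14 to 0.047 (G6pc3), -0.081 to 0.24 (Pfkl), -0.14 to 0.11 (Pgam1), -0.10 to 0.083 (Eno2), -0.096 to 0.16 (Gpi1), -0.18 to 0.0996 (Pgm2), -0.29 to 0.033 (Aldoc), -0.19 to 0.0088 (Eno1), -0.15 to 0.19 (Slc16a3), -0.069 to 0.13 (Myc), -0.38 to 0.0050 (Slc37a4), -0.22 to 0.065 (Tigar) and -0.065 to 0.11 points (share of Eno2). Of the 28 sign changes of members, 1 was called (Pfkl under voom); the cause was not tested.

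Calls among members, 0 and 0 otherwise, were 2 higher and 4 lower under voom, 1 and 3 with TPM over protein-coding genes, 1 and 1 when scaled by median of ratios, and 0 and 0 to 1 with 1 library left out (Gapdh, without chloride replicate 3). Calls over all genes, 182 higher and 70 lower, were 2 and 1 with no minimum, 707 and 358 under voom, 588 and 407 with TPM over protein-coding genes, 370 and 157 when scaled by median of ratios, and 5 and 6 over reference transcripts only; FPKM gave 118 lower. With 1 library left out they were 8 to 127 higher and 7 to 46 lower, fewest without propionate replicate 3, and the members' median was -0.14 to 0.033. Where 1 propionate library remained, its spread was taken from the other group.

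Replicate numbers 2 and 3 occur in both groups, but the labels do not tie them, and the correlations of same-numbered deviations were -0.22 and -0.20. With the replicate block, 261 genes were higher and 100 lower, no member was called and Ugdh lost its call (adjusted p = 0.0757); Mpi was -0.0146, G6pc3 0.0097, Pfkl -0.034 and Pgam1 0.032. The 2 propionate libraries and the coverage of low members limit what could be detected.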
